A study of Mus musculus with 20 samples.

Results

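The genes described here are H19, Igf2 and 8 further members of the imprinted gene network, Meg3, Rian, Mirg, Dlk1, Peg3, Peg10, Mest and Cdkn1c. They were chosen by name, because H19 was much lower after knockdown of the long noncoding RNA Myolinc, so the values of H19 in that comparison chose the genes. Of the 10 genes, 7 were found under these symbols among the 20193 genes listed in each of the sheets, and Rian, Mirg and Mest were not analysed here.

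The cells are C2C12, mouse myoblasts kept as an established line, which fuse into myotubes when serum is lowered, and their RNA was hybridised to Affymetrix arrays. The 20 samples form a pair of sets. The scramble set holds siMyolinc.1, siMyolinc.2 and siMyolinc.3 cells, transfected at 10 nM with 1 of 3 siRNAs against Myolinc, and siScr cells, transfected with a scramble siRNA, all taken at day 2 of differentiation in horse serum medium. The time-course set holds the same 3 siMyolinc groups at day 2, and cells that were not transfected: Undiff (day 0, growth medium), Day_1 and Day_2 (1 and 2 days of differentiation). There are 2 arrays per group, biological replicates by their labels; all cells are of a single line, and the p-values below measure only the spread between such pairs. Myolinc itself was not analysed here, so the depth of its knockdown is not given.

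The siMyolinc arrays of the sets carry the same labels. From each transcript cluster the mean over the 6 siMyolinc arrays of its set was subtracted. The remaining values of arrays with the same label correlated at 0.933 to 0.949 over 35532 transcript clusters. Between different labels their correlation was at most 0.289. The siMyolinc arrays were therefore treated as the same 6 arrays and the series as 14 arrays. The sets were normalised separately: on these shared arrays the time-course values were higher by a median of 0.445 log2 over all shared transcript clusters, and by 0.486 to 0.658 for H19. Levels are therefore compared within a set. In bulk RNA, fewer cells that express a gene and less RNA per cell cannot be told apart. In the time-course set the 9 measured muscle markers averaged a log2 level of 9.45 in each Day_2 array. The 4 measured markers of macrophages averaged 6.39 to 6.42 there, and those of endothelial cells 6.47. Those of adipocytes averaged 6.31 to 6.35 and those of osteoblasts 6.46 to 6.49. These averages of other cell types lie below the array medians of 7.42 to 7.51. Single markers varied. Averaged over all arrays of the set, Acta1, Cdh15, Des, Myf5 and Myod1 were above the median of all genes. Mef2c (6.14), Myh3 (7.07), Ckm (7.42) and Myog (7.54) were below it. Among the markers of other cell types only Cd68 of macrophages (8.19) was above it. The files give no detection calls, so none of these levels can be called absent.

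Imprinted genes are expressed from the copy of 1 parent, and methylation set in the germ line marks which copy is silent. H19 and Igf2 are neighbours that share enhancers: H19 is a noncoding RNA made from the maternal copy, and Igf2, a fetal growth factor that also acts on myoblasts, is made from the paternal copy. H19 RNA is abundant in embryonic tissue and muscle, is the precursor of the microRNA miR-675, and in the mouse has been described as restraining a network of imprinted genes that control growth.

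The mature microRNAs of the members' own loci show what a change of the host RNAs could carry with it. The sequences, in capitals at the seed (bases 2 to 8), are those of RefSeq (GRCm38.p6). The miR-675 arms lie within H19, on the minus strand at chr7:142577112-142577133 and chr7:142577078-142577099. The miR-483 arms lie within Igf2, on the minus strand at chr7:142654968-142654989 and chr7:142654932-142654952. The miR-409 arms lie within Mirg, on the plus strand at chr12:109743172-109743194 and chr12:109743204-109743225, and stand in for that host, which was not analysed here.
miR-675-5p: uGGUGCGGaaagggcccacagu
miR-675-3p: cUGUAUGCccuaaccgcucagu
miR-483-5p: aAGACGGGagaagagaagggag
miR-483-3p: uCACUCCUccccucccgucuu
miR-409-5p: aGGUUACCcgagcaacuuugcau
miR-409-3p: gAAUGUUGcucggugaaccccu
No 2 of these arms share a seed. Mir675 was not analysed here, so nothing below measures miR-675 itself.

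H19 moved further than any other member. In the untransfected series its log2 level was 12.86 and 12.84 in Undiff, 9.10 and 9.46 in Day_1, and 12.67 and 12.61 in Day_2. Both Day_1 arrays lay far below all Undiff and Day_2 arrays, so the RNA dipped on the first day in differentiation medium and was back on the second. Against Undiff, H19 fell by 3.57 ± 0.10 log2 at Day_1 (± marks the standard error of a log2 difference throughout), an 11.9-fold lower level with an adjusted p of 1.33e-09. Adjusted p-values are from limma, by the Benjamini-Hochberg method over all 20193 genes of a sheet, and a gene is said to have risen or fallen where this p is under 0.05. At Day_2 H19 rose by 3.36 ± 0.10 against Day_1 (adjusted p = 2.37e-09). Between Day_2 and Undiff the arrays did not overlap, but the difference of -0.21 (95% interval -0.44 to 0.01) did not pass the test (adjusted p = 0.156); it did without either Day_1 array (adjusted p = 0.0362) and in a fit of only the arrays compared (0.0324).

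The same 3 comparisons over time were run for all members, and the plot of time-course levels shows the arrays behind them. At Day_1 against Undiff, 5 of the 7 members passed the test, 2 higher and 3 lower, where 48.1% of all genes did (27% higher, 21.1% lower). At Day_2 against Day_1, 4 of 7 passed, 2 higher and 2 lower, beside 53.6% of all genes (21.1% higher, 32.4% lower). At Day_2 against Undiff 3 of 7 passed, 2 higher and 1 lower, beside 29.9% of all genes (14.8% higher, 15.2% lower). With so many genes moving, these counts are not a result about the members. The median difference over all genes was 0.11 at Day_1 against Undiff and -0.12 at Day_2 against Day_1. With each array centred on its 75th percentile instead, these medians shift by a further 0.15 and -0.14. The share of calls that are higher is then 78.9%, beside 56.2% as deposited, at Day_1 against Undiff, and 21.2%, beside 39.4%, at Day_2 against Day_1. The calls of H19, Peg3 and Peg10 above 1 log2 are many times these shifts; the Day_1 differences of Igf2, Meg3, Dlk1 and Cdkn1c are not.

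**Figure D1:**
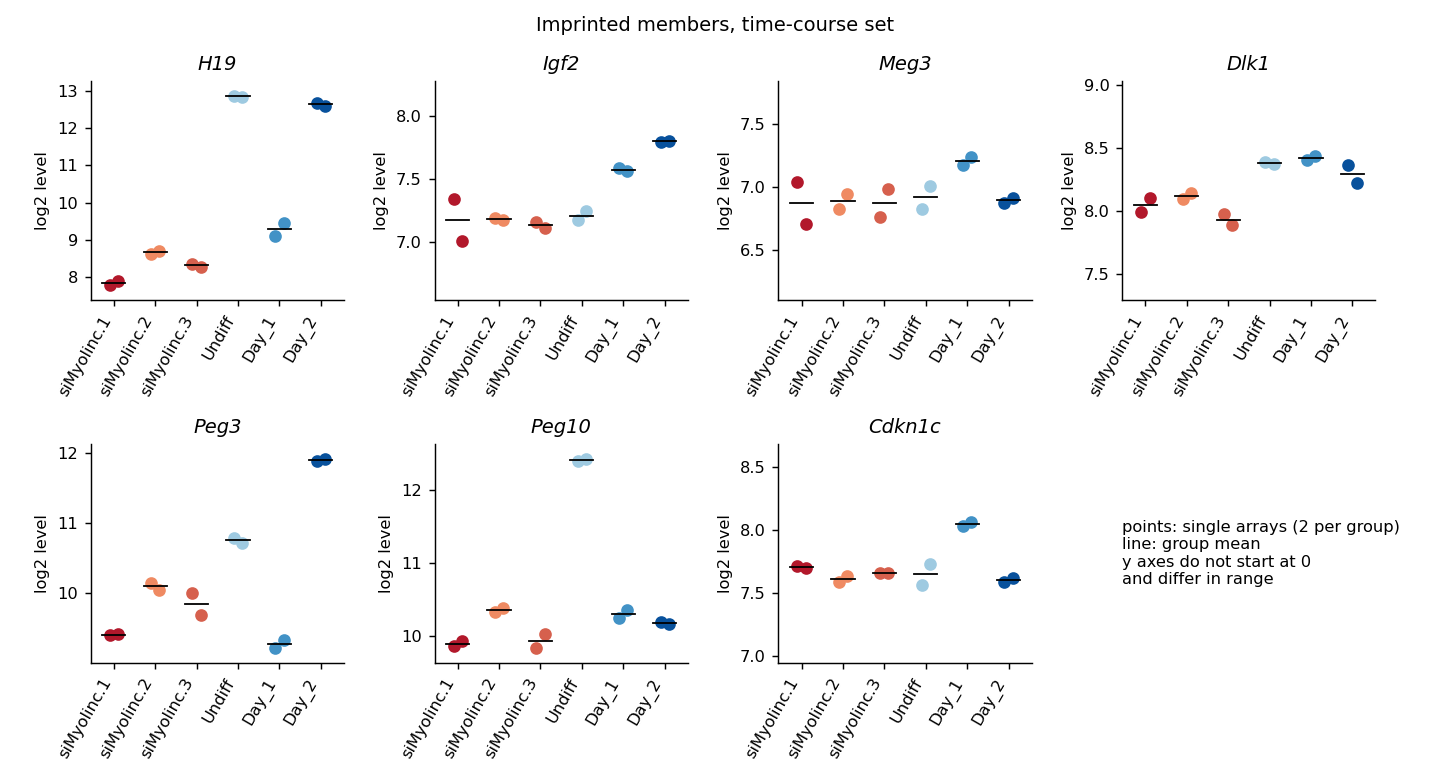
Log2 level of the 7 members in each array of the time-course set (points, 2 arrays per group; line, group mean), with the siMyolinc groups on the left and the untransfected series Undiff, Day_1 and Day_2 on the right; the y axes do not start at 0 and differ between panels. H19 drops at Day_1 (9.10 and 9.46) and is back at Day_2 (12.67 and 12.61), Peg3 drops and then exceeds Undiff, Peg10 drops and stays low, and all 6 siMyolinc arrays have less H19 than any untransfected array.

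In the siMyolinc cells at day 2, H19 was lower than in any untransfected sample. Its log2 level was 7.78 and 7.90 with siMyolinc.1, 8.63 and 8.70 with siMyolinc.2, and 8.35 and 8.27 with siMyolinc.3, in the same set as the series above. From low to high the groups ran siMyolinc.1, siMyolinc.3, siMyolinc.2, Day_1, Day_2 and Undiff, and no neighbours in this order overlapped. The mean of the 3 siRNA groups differed by -4.37 ± 0.08 log2 from Day_2, a 20.6-fold lower level, and by -4.58 ± 0.08 from Undiff. These arrays took part in the choice of the genes, so no test is given for H19. Day_2 cells were not transfected, and knockdown and transfection cannot be told apart in this comparison.

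The scramble set holds transfection constant. There H19 had log2 levels of 7.12 and 7.31 with siMyolinc.1, 8.10 and 8.21 with siMyolinc.2, and 7.75 and 7.79 with siMyolinc.3, against 9.38 and 10.31 in siScr cells. All 6 siMyolinc arrays lay below both siScr arrays, which themselves lay further apart than the arrays of any other group did for any member. The mean difference was -2.13 ± 0.19, or 4.39-fold lower with siMyolinc. By siRNA it was -2.63, -1.69 and -2.08 for siMyolinc.1, siMyolinc.2 and siMyolinc.3, and without 1 or the other siScr array the mean difference was -2.60 or -1.67. The siScr level of 9.85 ± 0.65 (SD, n = 2) stands beside 12.64 ± 0.05 in untransfected Day_2 cells of the other set; the sets were normalised separately, and the shared arrays put H19 between 0.486 and 0.658 higher in the time-course set. The distance between siScr and Day_2 cells is thus larger than the offset between sets, but no siScr array was normalised with the Day_2 arrays and the distance was not tested.

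Of the 7 members, H19 and Peg3 passed the threshold for siMyolinc against siScr, both lower, beside 9.09% of all genes (3.64% higher, 5.45% lower); since this comparison chose the genes, nothing is read from the count. With the 75th percentile as centre 53.5% of all calls are higher, beside 40.1% as deposited. The plot of scramble-set levels shows all 7.

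**Figure D2:**
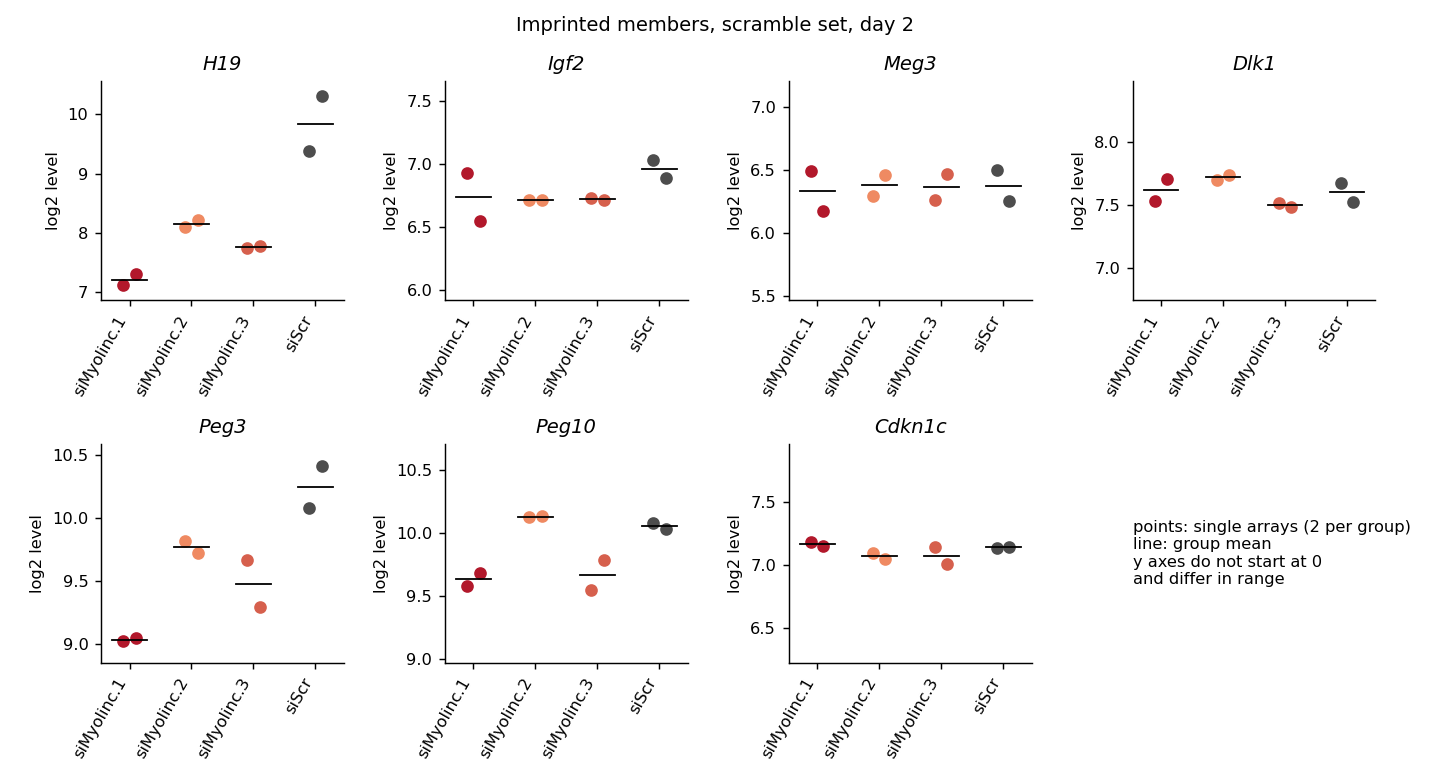
Log2 level of the 7 members in each array of the scramble set at day 2 (points, 2 arrays per group; line, group mean), siMyolinc.1 to siMyolinc.3 on the left and siScr on the right; the y axes do not start at 0 and differ between panels. H19 and Peg3 lie lower in all 6 siMyolinc arrays than in both siScr arrays, and for Peg10 only the siMyolinc.2 arrays reach the siScr level.

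Genes of muscle moved beside H19. Of the 9 measured muscle markers 6 were past the threshold for siMyolinc against siScr, all lower, beside 5.45% of all genes. The median of the list was -0.81, beside -0.01 for all genes. With the 6 siMyolinc arrays as 1 group 3 markers were past the threshold. Summed over the 9 markers, the log2 level was 68.7 to 69.1 with siMyolinc.1, 74.0 to 74.1 with siMyolinc.2 and 68.7 to 69.4 with siMyolinc.3, against 77.2 to 77.7 in siScr. Of the 16 measured markers of other cell types only Cd68, a macrophage lysosome gene, was past the threshold (0.51), beside 9.09% of all genes. The muscle markers did not move as 1 group at Day_1 against Undiff: 5 of the 9 rose and 2 fell, with a median of 0.32, beside 48.1% of all genes passing. Among those that rose were Myf5, a myogenic factor of myoblasts, by 1.01 ± 0.07 (adjusted p = 3.94e-07), and Myog, the differentiation factor myogenin, by 0.78 ± 0.10 (adjusted p = 0.000106). The 2 that fell were Des and Myod1. Des, the muscle intermediate filament, fell by 2.18 ± 0.08 at Day_1 (adjusted p = 5.96e-09) and rose by 2.50 ± 0.08 at Day_2 against Day_1 (adjusted p = 3.62e-09), and Myod1, the myogenic transcription factor, fell by 2.17 ± 0.07 and rose by 1.91 ± 0.07 (adjusted p = 2.45e-09 and 7.51e-09). In siMyolinc cells 6 of the 9 markers were lower and 1 was higher than in Day_2 cells, beside 18.9% and 19.3% of all genes. Des was lower there by -2.93 and Myod1 by -2.24 (adjusted p = 1.23e-10 and 2.4e-10). Against siScr the differences were -1.32 for Des and -0.33 for Myod1, which was not past the threshold. The part of these muscle genes in the H19 values was not tested.

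The genes most like H19 were found by Pearson correlation over the 6 group means of the time-course set, among the 2012 genes whose means span at least 1 log2. They were Smyd1, a methyltransferase of striated muscle (r = 0.998), Lsp1, Fam110a, Adcy7, Acadm, Sprr1a, Enpp3, Ldb3, a Z-disc protein, Fstl1 and Palld (r = 0.994). The 6 points share their arrays, and the correlations only describe which genes were low in Day_1 and siMyolinc cells together.

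Igf2 took another course than its neighbour. Its log2 level was 7.17 and 7.24 in Undiff, 7.58 and 7.56 in Day_1, and 7.79 and 7.80 in Day_2. The groups did not overlap and stepped up on each day. Igf2 rose by 0.37 ± 0.09 at Day_1 against Undiff (adjusted p = 0.00698) and stood 0.59 ± 0.09 higher at Day_2 than in Undiff (adjusted p = 0.000391), a 1.51-fold rise. The step between Day_2 and Day_1, 0.23 (95% interval 0.03 to 0.43), did not pass (adjusted p = 0.0553), and without the first Undiff array the Day_1 rise did not either (adjusted p = 0.0538).

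In siMyolinc cells Igf2 was lower than in Day_2 cells. It had log2 levels of 7.34 and 7.01 with siMyolinc.1, 7.18 and 7.17 with siMyolinc.2, and 7.16 and 7.11 with siMyolinc.3, all below both Day_2 arrays. Against Day_2 it was lower by -0.63 ± 0.07 (adjusted p = 3.11e-05), and against Undiff the difference was -0.04 (95% interval -0.21 to 0.12; adjusted p = 0.705). In the scramble set its levels were 6.93 and 6.54, 6.72 and 6.72, and 6.73 and 6.71 with siMyolinc.1, siMyolinc.2 and siMyolinc.3, against 7.03 and 6.89 in siScr. Here 1 siMyolinc.1 array reached into the siScr range, and the difference was -0.24 ± 0.09. Averaged over the arrays of a set, Igf2 lay below the median of all genes in both sets. Its Day_2 arrays, at 7.79 and 7.80, stood above the array medians of 7.42 to 7.51. By the measure used for H19, the genes most like Igf2 were Sepw1, a selenoprotein (r = 0.964), Siglecg, Ptn, Tnnt3, Dpyd, Ablim3, Tnnc2, Mylpf, Acta1 and Cpa1 (r = 0.919); Tnnt3, Tnnc2, Mylpf and Acta1 code for proteins of the fast or skeletal sarcomere.

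Of the microRNA genes of the imprinted loci, 21 of 30 were measured. At Day_1 against Undiff 5 rose and none fell, at Day_2 against Day_1 7 fell and none rose, with medians of 0.16 and -0.22, beside 0.11 and -0.12 for all genes. Of all genes 48.1% and 53.6% passed in these comparisons, a larger share than of this list. Mir483, inside Igf2, rose by 0.39 ± 0.10 at Day_1 (adjusted p = 0.00943), a call lost without the first Undiff array or the second Day_1 array. Mir483 fell by 0.47 ± 0.10 at Day_2 against Day_1 (adjusted p = 0.00346). The host Igf2 rose on the first day, and its step of 0.23 on the second did not pass (adjusted p = 0.0553). These are array levels of the microRNA genes, not of the mature sequences shown above. The counts depend on single arrays and on the scaling. At Day_1 against Undiff it was 2 without the first Undiff array and 3 without the first Day_1 array. At Day_2 against Day_1 it was 4 without the second Day_1 or the first Day_2 array, and 3 without the second Day_2 array. With the 75th percentile as centre 12 and 14 passed in these comparisons, and with dim genes left out 1 and 2. At Day_2 against Day_1 a further quantile normalization left 3, and a fit of only the arrays compared gave 13. None of the 21 passed the threshold for siMyolinc against siScr, beside 9.09% of all genes, and Mir483 was at -0.11 ± 0.10. Averaged over the arrays of a set, only Mir483 and Mir540 of the 21 were not below the median of all genes in both sets. The dimmest, Mir376c, averaged 2.86 in the scramble set. The lack of calls therefore does not show stable levels.

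Cdkn1c, which lies beyond Igf2 in the same cluster and codes for a maternally expressed inhibitor of cyclin-dependent kinases, peaked at Day_1. Its log2 level was 7.56 and 7.73 in Undiff, 8.03 and 8.06 in Day_1, and 7.58 and 7.62 in Day_2. Only the Day_1 arrays stood apart. It rose by 0.40 ± 0.06 at Day_1 (adjusted p = 0.000451) and fell by 0.44 ± 0.06 at Day_2 against Day_1 (adjusted p = 0.000235). With siMyolinc it lay between 7.58 and 7.71 in the time-course set, within the Undiff range, and its difference from Day_2 was 0.06 (95% interval -0.06 to 0.17; adjusted p = 0.456). In the scramble set it was 7.01 to 7.18 in siMyolinc cells and 7.14 in both siScr arrays, a difference of -0.04 ± 0.06.

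Other cyclin-dependent kinase inhibitors were measured as a family of 5. At Day_1 against Undiff 3 rose and 1 fell, beside 27% and 21.1% of all genes. Cdkn2c, which inhibits Cdk4 and Cdk6, fell by 1.68 ± 0.12 at Day_1 (adjusted p = 6.16e-07), rose by 1.14 ± 0.12 at Day_2 against Day_1 (adjusted p = 1.82e-05), and was lower by -1.72 ± 0.10 in siMyolinc cells than in Day_2 cells (adjusted p = 7.53e-08). Cdkn1b, the inhibitor p27, rose by 0.60 ± 0.07 at Day_1 (adjusted p = 2.34e-05). Against siScr, with transfection on both sides, none of the 5 was past the threshold, and Cdkn2c differed by -0.12 ± 0.10 and Cdkn1b by -0.04 ± 0.07. Averaged over all arrays of a set, Cdkn1b was far lower in the time-course set than in the scramble set. The offset between the sets has the opposite direction. Whether the Cdkn1b rows of the sets hold the same transcript cluster was not tested. Its difference from siScr is therefore not compared with its rise at Day_1.

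Dlk1 and Meg3 are the paternally expressed protein gene and the maternally expressed noncoding RNA of the imprinted cluster on chromosome 12; Dlk1 is a membrane protein related to Notch ligands. Dlk1 had log2 levels of 8.39 and 8.37 in Undiff, 8.41 and 8.44 in Day_1, and 8.37 and 8.22 in Day_2. The groups lay close together, and no pair of them passed the test (adjusted p = 0.646 for Day_1 against Undiff, 0.143 for Day_2 against Day_1 and 0.437 for Day_2 against Undiff). Its levels with siMyolinc were 7.99 and 8.11, 8.10 and 8.15, and 7.97 and 7.89 for siMyolinc.1, siMyolinc.2 and siMyolinc.3. All 6 lay below every untransfected array. Dlk1 was lower by -0.26 ± 0.06 in siMyolinc than in Day_2 cells (adjusted p = 0.0031) and by -0.35 ± 0.06 than in Undiff (adjusted p = 0.000354). The first of these was lost without the first Day_2 array (adjusted p = 0.0826) and after a further quantile normalization (0.0572). In the scramble set, where both sides were transfected, the siMyolinc arrays lay between 7.49 and 7.74, around the siScr arrays at 7.68 and 7.53, with a difference of 0.01 ± 0.07.

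Meg3 was dim, below the median of all genes in both sets. Its log2 level was 6.83 and 7.01 in Undiff, 7.18 and 7.24 in Day_1, and 6.88 and 6.92 in Day_2. The Day_1 arrays were the highest. The rise at Day_1 of 0.29 (95% interval 0.04 to 0.53) did not pass (adjusted p = 0.0541), while the fall by 0.31 ± 0.11 at Day_2 against Day_1 did (adjusted p = 0.0371), a call that was lost without any 1 of the 4 Day_1 and Day_2 arrays (adjusted p between 0.0748 and 0.153) and after a further quantile normalization (0.309). In siMyolinc cells it ranged over 6.71 to 7.04, which covers both Day_2 arrays. The difference from Day_2 was -0.02 (95% interval -0.22 to 0.18; adjusted p = 0.908), and that from siScr in the other set was -0.02 ± 0.11. Over the 6 group means Meg3 was closest to Cdkn1c among the members (r = 0.955), both being highest at Day_1.

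Of the 8 Notch genes listed with Dlk1, 5 fell and 2 rose at Day_1 against Undiff, with a median of -0.56, where 21.1% of all genes fell and 27% rose. In siMyolinc cells 7 of 8 were lower than in Day_2 cells and none was higher, with a median of -0.48, beside 18.9% lower and a median of 0.045 for all genes. Hes1, a transcriptional target of Notch, fell by 1.61 ± 0.10 at Day_1 (adjusted p = 2.97e-07), rose by 1.43 ± 0.10 at Day_2 against Day_1 (adjusted p = 1.03e-06) and was lower by -1.51 ± 0.08 in siMyolinc than in Day_2 cells (adjusted p = 7.28e-08). The receptors Notch3 and Notch2 were lower by -1.22 and -1.15 in siMyolinc than in Day_2 cells (adjusted p = 1.18e-07 and 4.24e-09). Against siScr the differences were smaller: -0.24 for Hes1, -0.34 for Notch3 and -0.31 for Notch2, with a list median of -0.20. There 4 of 8 were past the threshold, all lower, beside 5.45% of all genes; with the 6 siMyolinc arrays as 1 group it was 0, without the first siScr array 1 and without the second 0.

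Peg3, a paternally expressed zinc-finger gene, followed H19 in direction but not in size. Its log2 level was 10.79 and 10.72 in Undiff, 9.22 and 9.34 in Day_1, and 11.88 and 11.91 in Day_2. No groups overlapped. Peg3 fell by 1.47 ± 0.09 at Day_1 against Undiff (adjusted p = 2.53e-07), rose by 2.61 ± 0.09 at Day_2 against Day_1 (adjusted p = 5.01e-09), and ended 1.14 ± 0.09 above Undiff (adjusted p = 3.61e-06), which H19 did not. Over the 6 group means it was the member closest to H19 (r = 0.840).

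In siMyolinc cells of the time-course set Peg3 was at 9.41 and 9.42 with siMyolinc.1, 10.15 and 10.05 with siMyolinc.2, and 10.00 and 9.69 with siMyolinc.3. These values fill the space between Day_1 and Undiff and lie far below Day_2. The difference from Day_2 was -2.11 ± 0.08, a 4.31-fold lower level (adjusted p = 1.97e-09), and from Undiff -0.97 ± 0.08 (adjusted p = 9.22e-07). When all 6 siMyolinc arrays form 1 group and the spread between siRNAs enters the error, the adjusted p against Day_2 was 6.11e-07.

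In the scramble set Peg3 was at 9.02 and 9.04 with siMyolinc.1, 9.82 and 9.72 with siMyolinc.2, and 9.66 and 9.29 with siMyolinc.3, against 10.07 and 10.41 in siScr cells. All siMyolinc arrays were below both siScr arrays, with a mean difference of -0.82 ± 0.11. With the 6 siMyolinc arrays as 1 group Peg3 was no longer past the threshold here. By siRNA this was -1.21, -0.48 and -0.77 for siMyolinc.1, siMyolinc.2 and siMyolinc.3. Whether the siRNAs differ from each other was asked with limma's F test. It does not use the siScr level, but the spread between the siScr arrays enters its error. Of the 7 members 2 passed this test, Peg3 (adjusted p = 0.0406) and Peg10 (adjusted p = 0.023), beside 4.04% of all genes. H19 did not (adjusted p = 0.121), with an SD of 0.65 between its siScr arrays. The F test of Peg3 did not pass without any 1 of the 4 siMyolinc.1 and siMyolinc.2 arrays (adjusted p between 0.161 and 0.226), nor did that of Peg10 (0.0541 to 0.228). That of H19 passed without either siScr array (adjusted p = 0.0038).

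The promoter window of Peg3 in RefSeq (GRCm38.p6) runs from 250 bases before to 50 bases after the start used there, at chr7:6730370-6730669 on the minus strand. It is printed because imprints sit on CpG dinucleotides, in capitals here, and because Peg3 passed the test in each comparison over time.
Peg3 promoter: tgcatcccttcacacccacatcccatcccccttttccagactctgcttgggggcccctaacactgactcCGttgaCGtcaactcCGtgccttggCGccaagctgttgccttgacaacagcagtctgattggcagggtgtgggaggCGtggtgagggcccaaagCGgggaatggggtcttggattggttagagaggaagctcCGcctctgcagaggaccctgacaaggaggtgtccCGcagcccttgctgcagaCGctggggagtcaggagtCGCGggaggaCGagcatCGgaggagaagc
The window holds 13 CpG, beside a median of 7 over the 32851 windows of this length. The E-box CANNTG, the letters that Myod1 and Myog can bind, reads the same motif on both strands. It was searched together with its form with a GC centre, CAGCTG, and with the YY1 core, CCATNTT. The E-box occurs in 72.3% of all windows, and the other motifs in 16.3% and 16.1%. None of them is in this window, which says only that these letters are not in this stretch. The methylation of the window was not measured. Of the 7 members 4 had a window in the table, and H19 was not among them.

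Peg10, a paternally expressed gene that derives from a retrotransposon, fell early and did not return. Its log2 level was 12.40 and 12.43 in Undiff, 10.25 and 10.36 in Day_1, and 10.20 and 10.17 in Day_2. Both Undiff arrays stood far above all others. Peg10 fell by 2.11 ± 0.07 at Day_1 (adjusted p = 3.13e-09, 4.32-fold lower), and at Day_2 against Day_1 the difference was -0.12 (95% interval -0.28 to 0.04; adjusted p = 0.184). With siMyolinc its levels were 9.86 and 9.94, 10.33 and 10.38, and 9.84 and 10.03 for siMyolinc.1, siMyolinc.2 and siMyolinc.3, on both sides of Day_2. The difference from Day_2 was -0.12 (95% interval -0.25 to 0.01; adjusted p = 0.148), and from Undiff -2.35 ± 0.06 (adjusted p = 9.23e-11). In the scramble set Peg10 was at 9.58 and 9.68 with siMyolinc.1, 10.13 and 10.13 with siMyolinc.2, and 9.54 and 9.78 with siMyolinc.3, against 10.08 and 10.03 in siScr. The siMyolinc.2 arrays lay just above siScr and the other 4 below it, and by siRNA the differences were -0.42, 0.07 and -0.39 for siMyolinc.1, siMyolinc.2 and siMyolinc.3.

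**Figure D3:**
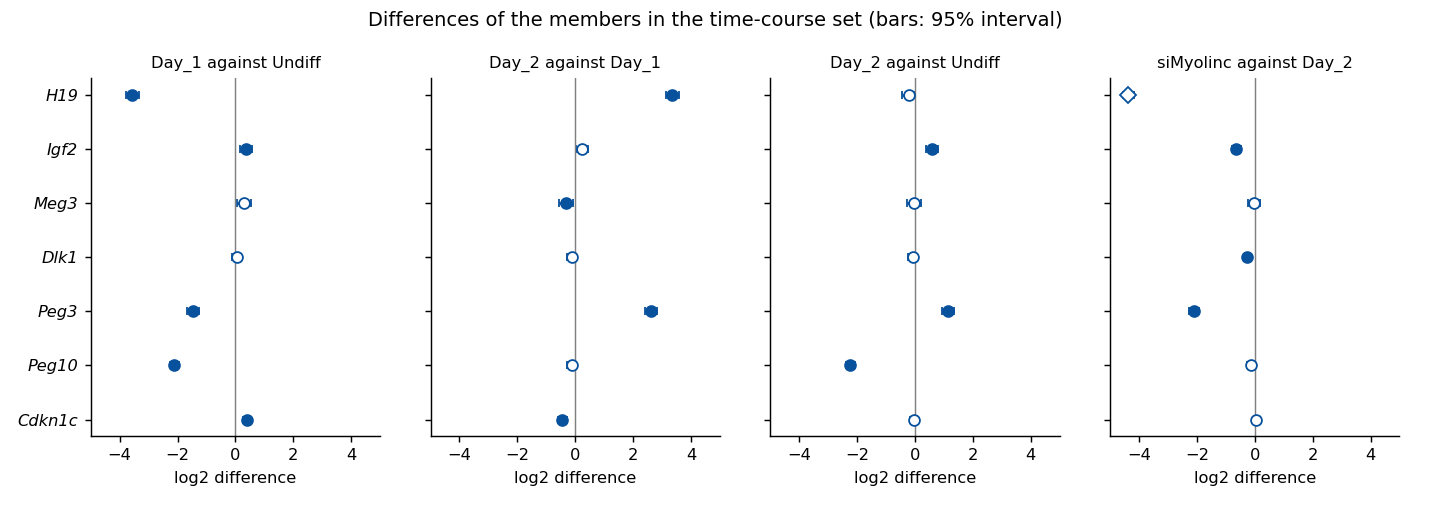
Log2 difference of each member (rows) in 4 comparisons of the time-course set, with 95% intervals; filled points have an adjusted p under 0.05, open points do not, and the open diamond is H19, given without a test. H19 and Peg3 lie left of 0 at Day_1 against Undiff and for siMyolinc against Day_2, and right of 0 at Day_2 against Day_1.

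Between siMyolinc and Day_2 cells 4 of the 7 members passed the threshold, H19 among them through the choice of the genes, and all 4 were lower; 38.1% of all genes passed, 19.3% higher and 18.9% lower. With the 75th percentile as centre 60.5% of the calls are higher, beside 50.5% as deposited. Against Undiff it was also 4 of 7, all lower, beside 40.3% passing, 20.2% in each direction; with the 75th percentile as centre 60.7% of those calls are higher, beside 4073 higher and 4074 lower calls as deposited. Both comparisons share the siMyolinc arrays. The members differed among themselves: H19, Igf2, Peg3 and Dlk1 were lower in siMyolinc than in Day_2 cells, whereas Meg3, Peg10 and Cdkn1c did not pass.

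Of 40 further imprinted genes 35 were measured. In siMyolinc cells 9 were lower and 6 higher than in Day_2 cells, with a median of 0.02, beside 0.045 for all genes, of which 18.9% were lower and 19.3% higher. Dcn, the collagen-binding proteoglycan decorin, rose by 2.54 ± 0.08 at Day_1 (adjusted p = 1.6e-09) and again by 2.49 ± 0.08 at Day_2 (adjusted p = 2.37e-09), and was lower by -2.33 ± 0.06 in siMyolinc than in Day_2 cells (adjusted p = 2.86e-10). Zim1, a zinc-finger gene next to Peg3, fell by 1.63 ± 0.11 at Day_1 (adjusted p = 5.65e-07), rose by 1.25 ± 0.11 at Day_2 against Day_1 (adjusted p = 6.19e-06) and was lower by -1.33 ± 0.09 in siMyolinc than in Day_2 cells (adjusted p = 4.36e-07). These are the directions of Peg3 in the same comparisons. Ampd3, an AMP deaminase, was higher by 0.89 ± 0.05 in siMyolinc than in Day_2 cells (adjusted p = 1.02e-07). Against siScr, Dcn differed by -1.13, Ampd3 by 0.40 and Zim1 by -0.09, the last not past the threshold, nor was Dcn with the 6 siMyolinc arrays as 1 group.

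The 14 genes listed for the control of imprinting, Tet1, Tet2 and Tet3 among them, did not move as 1 group. At Day_1 against Undiff 6 fell and 3 rose, beside 21.1% and 27% of all genes. Uhrf1 and Dnmt1, which copy methylation after DNA replication, fell by 2.43 ± 0.10 and 1.84 ± 0.06 (adjusted p = 1.32e-08 and 3.25e-09), rose by 1.13 and 1.20 at Day_2 against Day_1 (adjusted p = 6.85e-06 and 1.03e-07), and were lower by -1.44 and -1.24 in siMyolinc than in Day_2 cells (adjusted p = 1.12e-07 and 7.16e-09). Zfp57, a zinc-finger protein that guards imprints in the early embryo, took the opposite course, rising by 1.36 ± 0.08 at Day_1 (adjusted p = 2.34e-07), with a difference of -1.45 ± 0.08 at Day_2 against Day_1 (adjusted p = 1.9e-07) and lying 1.11 ± 0.07 higher in siMyolinc than in Day_2 cells (adjusted p = 1.79e-07). None of the 14 was past the threshold for siMyolinc against siScr, where Uhrf1 differed by -0.17, Dnmt1 by -0.20 and Zfp57 by -0.02.

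The list around Igf2 holds Igf1, receptors, relays of the signal, and the Igfbp and Igf2bp genes. Of its 14 measured genes, 6 were higher and 6 lower in siMyolinc than in untransfected Day_2 cells, beside 19.3% and 18.9% of all genes. The list median was 0.07. Igfbp2 and Igfbp5, secreted proteins that bind Igf2, were lower by -3.34 ± 0.11 and -1.97 ± 0.05 (adjusted p = 1.06e-09 and 2.5e-10), Irs1, the substrate that carries the receptor signal, by -1.23 ± 0.06 (adjusted p = 2.77e-08), and Igfbp4 was higher by 1.54 ± 0.05 (adjusted p = 1e-09). Against siScr 4 were past the threshold and all were lower, beside 5.45% of all genes: Igfbp2 (-1.67), Igfbp6 (-0.60), Igfbp4 (-0.46) and Igfbp5 (-0.29). Igfbp4 thus had opposite signs against siScr and against Day_2. With the 6 siMyolinc arrays as 1 group 1 gene of the list was past the threshold, and Igfbp2 was not. At Day_1 against Undiff Igfbp2 and Igfbp5 fell by 1.73 and 1.20 and Igfbp4 rose by 1.70 (adjusted p = 1.39e-06, 6.82e-08 and 4.21e-09).

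H19 RNA has been described as binding let-7, a microRNA family, and as the source of miR-675, and reported targets of both were looked up. Of the 15 measured let-7 targets 4 were higher and 1 was lower in siMyolinc than in Day_2 cells, with a median of 0.08, beside 19.3% and 18.9% of all genes. Hmga2, a chromatin protein of growing cells, was higher by 1.00 ± 0.08 (adjusted p = 1.65e-06) and Myc by 0.74 ± 0.12 (adjusted p = 0.000289); in the scramble set Hmga2 was 1.15 ± 0.09 higher with siMyolinc than with siScr, a call lost with the 6 siMyolinc arrays as 1 group, while Myc differed by -0.01 ± 0.11. The miR-675 targets reported in muscle cells, Smad1, Smad5 and Cdc6, were lower by -0.23, -0.24 and -0.59 in siMyolinc than in Day_2 cells (adjusted p = 0.0183, 0.00217 and 7.99e-05). The call of Smad1 was lost without either Day_2 array (adjusted p = 0.14 and 0.077), and in the scramble set none of the 3 was past the threshold (0.07, 0.05 and -0.14).

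**Figure D4:**
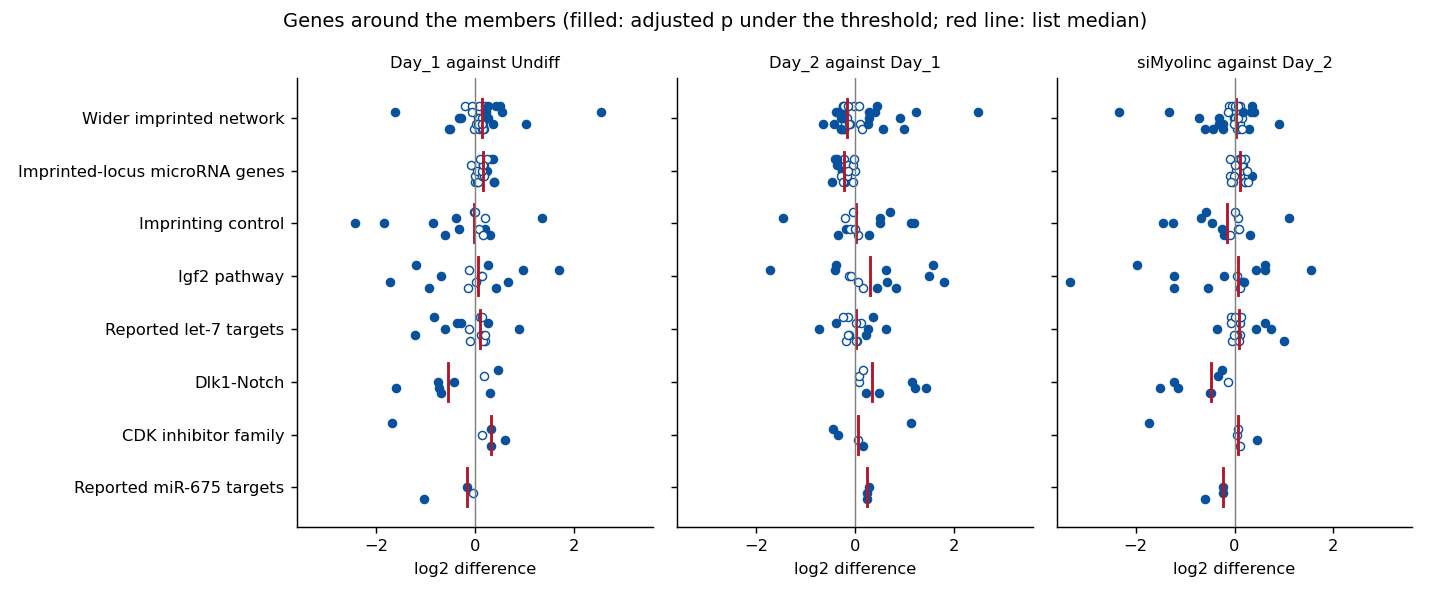
Log2 difference of the genes listed around the members (points; filled where the adjusted p is under 0.05), by list, with the list median as a red line, for Day_1 against Undiff, Day_2 against Day_1 and siMyolinc against Day_2. Most list medians lie near 0, and the median of the Notch genes listed with Dlk1 lies left of 0 at Day_1 (-0.56; 5 genes lower, 2 higher) and for siMyolinc against Day_2 (-0.48).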

How the data were processed

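RNA of C2C12 cells was measured on Affymetrix arrays in 20 samples. Each transcript cluster has a deposited log2 expression level, which the authors obtained by RMA, per the submitters' processing notes; version, annotation and build: not given in the sources used here. Beside them the authors' sheets give log2 differences and p-values from limma, per the file headers and the submitters' processing notes, and these were not used. Of the 20193 genes per sheet, 23 symbols turned into dates were named by their gene name, and 23 date cells of the second siMyolinc.3 array were set to missing, so the fit dropped them; 1728 cells of the second Undiff array, among them Igf2, are deposited with fewer decimals. All columns with values of single samples were used (0 unused).

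Each sheet was fitted as a whole with limma (version 3.58.1, R version 4.3.3), with 1 coefficient per group and the 3 siRNAs weighted equally; the smallest unit of replication is 2 arrays, and the number of arrays limits the precision (median standard error 0.0710 for siMyolinc against siScr, 0.0801 between Day_1 or Day_2 and Undiff). The fit was tested on simulated data. The members and gene lists were chosen with earlier results of these data known. Named from a list were up to 4 genes past the threshold with the largest absolute difference in a comparison; all members are named, and the 10 genes most like H19 and Igf2. Alternatives were other scalings, priors, weights, filters, sources of values, the replicate number as a block, and leaving out each array. Gene symbols are those of the deposited sheets, and neighbours and sequences follow RefSeq (GRCm38.p6).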

Additional observations from a re-analysis of the deposited data

Results flagged for a closer look

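For 2 members the test for a difference among the 3 siRNAs against Myolinc passed at day 2. The difference of Peg3 from siScr was -1.21, -0.48 and -0.77 with siMyolinc.1, siMyolinc.2 and siMyolinc.3, and the moderated F test among the siRNAs gave an adjusted p of 0.0406. That of Peg10 was -0.42, 0.07 and -0.39, with an adjusted p of 0.023. In both genes siMyolinc.2 was nearest to siScr, as it was for the summed muscle markers. In the whole series matrix neither F test passed (adjusted p = 0.181 for Peg3 and 0.114 for Peg10). The call of Peg3 was also lost with the replicate number as a block (adjusted p = 0.0698) and after another quantile normalization (0.0528). In a fit of only the siMyolinc arrays the F test of H19 passed as well (adjusted p = 0.0038).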

How the results depend on the processing

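The counts of members past the threshold in the 5 comparisons of the time-course set stayed within 1.5 times under every alternative run, and no difference of a member that passed the test changed sign. For siMyolinc against siScr, 1 member (H19) and not 2 passed with the 6 siMyolinc arrays as 1 group. Peg10 passed beside H19 and Peg3 with dim genes left out, and also with an intensity trend and robust prior. The H19 difference ran over -2.60 to -1.67 with an array left out. The count of members that differ among the siRNAs was 1 after another quantile normalization and 0 in the whole series matrix, where more features are tested, 3 with array weights or with only the arrays compared, and ran over 0 to 3 with an array left out. With the replicate number as a block it was 1 and the H19 difference stayed at -2.13. The difference between the first and the second array of a group was correlated between groups, over the genes. These correlations were -0.113 to 0.221 in the scramble set and -0.167 to 0.237 in the time-course set. Such low values show no common pairing of the arrays by number. Differences of members that did not pass changed sign. With the 75th percentile as centre these were Meg3 against Day_2 (0.029) and Undiff (0.0214) and Igf2 against Undiff (0.0181), all for siMyolinc. With an array left out, Day_2 against Undiff ran over -0.116 to 0.0687 for Meg3 and -0.127 to 0.038 for Cdkn1c. Likewise siMyolinc against Day_2 ran over -0.0717 to 0.0389 for Meg3, and siMyolinc against Undiff over -0.0988 to 0.012 for Igf2, -0.132 to 0.0523 for Meg3 and -0.0715 to 0.0935 for Cdkn1c. The cause was not tested. Leaving out dim genes drops Igf2 and Meg3. With the 75th percentile as centre Dlk1 passed at Day_1 against Undiff (adjusted p = 0.0361) and Peg10 at Day_2 against Day_1 (adjusted p = 0.013).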
